A study of Mus musculus with 3 samples.

Results

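The 9 genes described here encode transcription factors that fix or shape the lineages of T cells and natural killer (NK) cells: Tbx21, Eomes, Gata3, Rora, Foxp3, Maf, Ikzf2, Bcl6 and Zeb2. They were chosen by symbol, all 9 were among the 32285 genes of the count matrices, and they were followed in cells gated as CD4, CD8, regulatory T and NK cells. Peripheral blood mononuclear cells of C57BL/6 mice were read as single cells by 3′ RNA sequencing in droplets, in 3 libraries, 1 per group. The groups were young mice aged 8 weeks with no treatment, aged mice of 16 months with no treatment, and aged-GA mice of 16 months given glycyrrhizic acid (GA), a licorice saponin, for 1 month. The study's methods add that GA was injected into the tail vein every other day and that control mice received saline, where the labels give no treatment; they list several mice per group and do not say how those mice entered a library. With 1 library per group no difference could be tested, so each level is given with its 95% counting interval, which holds no spread between mice.

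T-bet (Tbx21) and Eomes are related T-box factors that switch on interferon and killing genes in type 1 helper, CD8 and NK cells, and Zeb2 is a zinc-finger repressor that acts with T-bet in terminal effector cells. GATA3 guides type 2 helper cells, RORα (Rora) is a nuclear receptor of type 17 and innate lymphoid cells, c-Maf (Maf) supports interleukin-10 and interleukin-21 in helper cells, and BCL6 is the repressor that defines follicular helper cells. Foxp3 defines regulatory T cells, most of which in mice also hold Helios (Ikzf2), a zinc-finger factor of the Ikaros family. In the blood of ageing mice, naive T cells are known to give way to memory T cells.

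All 9 are protein-coding genes. On build GRCm38 (the build that mm10 names, annotation GENCODE vM21), Tbx21 (ENSMUSG00000001444) lies at chr11:97098071-97115331, Eomes (ENSMUSG00000032446) at chr9:118478212-118486132 and Zeb2 (ENSMUSG00000026872) at chr2:44983632-45117395. Gata3 (ENSMUSG00000015619) lies at chr2:9857078-9890034, Rora (ENSMUSG00000032238) at chr9:68653786-69388246 and Foxp3 (ENSMUSG00000039521) at chrX:7573644-7595245. Maf (ENSMUSG00000055435) lies at chr8:115682942-115707794, Ikzf2 (ENSMUSG00000025997) at chr1:69531214-69687245 and Bcl6 (ENSMUSG00000022508) at chr16:23965052-23988852.

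The 250 bases before the first start site of Tbx21, Eomes and Zeb2 are shown because the results in the CD8 and NK gates turn on these factors. The sequences are from RefSeq, build GRCm38.p6, written 5′ to 3′ on the gene's strand, with a motif match in capitals.
Tbx21, chr11:97115332-97115581, minus strand: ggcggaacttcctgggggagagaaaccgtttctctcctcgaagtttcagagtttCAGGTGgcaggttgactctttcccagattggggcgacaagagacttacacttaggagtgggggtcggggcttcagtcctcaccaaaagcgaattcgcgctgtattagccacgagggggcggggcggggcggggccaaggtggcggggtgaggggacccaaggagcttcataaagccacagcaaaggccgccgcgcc
Eomes, chr9:118477939-118478188, plus strand: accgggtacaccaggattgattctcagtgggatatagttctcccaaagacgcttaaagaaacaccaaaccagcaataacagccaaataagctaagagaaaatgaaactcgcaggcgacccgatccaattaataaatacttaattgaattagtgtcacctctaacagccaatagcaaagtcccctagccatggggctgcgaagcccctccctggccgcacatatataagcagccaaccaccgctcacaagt
Zeb2, chr2:45117443-45117692, minus strand: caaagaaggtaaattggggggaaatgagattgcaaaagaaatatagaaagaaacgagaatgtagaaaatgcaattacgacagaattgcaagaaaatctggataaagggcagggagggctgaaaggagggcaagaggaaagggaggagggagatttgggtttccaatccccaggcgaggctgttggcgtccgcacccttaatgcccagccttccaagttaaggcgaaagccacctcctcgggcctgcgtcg
Promoters of 7 of the 9 genes were matched (Maf and Ikzf2 were not) and were searched for 5 motifs on both strands. The E-box that ZEB proteins read, CACCTG, was in 17.2% of the 32851 promoter windows of this length. The half-site that T-box factors read, AGGTGT, was in 11.8% of them. The ROR half-site was written as AGGTCA and found in 14% of windows. GATA factors read AGATAA, which 9.99% of windows held. Large MAF proteins read a half-site that was written as TGCTGA, found in 16.1%. Tbx21 held 1 E-box, on the other strand and so in capitals as its complement, with its first base 196 bases before the start. Eomes and Zeb2 held none of these letters in this window. A match is a string of letters and was not tested as a binding site.

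After the filters 8851 young, 10238 aged and 12648 aged-GA cells were kept, at a median of 4671, 3810.5 and 4752 unique molecular identifiers (UMIs, each standing for 1 captured molecule) per cell. A level is given in CPM, the UMIs of a gene over all UMIs of the same cells, scaled to 1000000. Because several UMIs of a gene can come from 1 cell, the counting intervals are narrower than the spread between cells would make them. The CD4 gate held 1006, 497 and 690 cells, the CD8 gate 1764, 712 and 1469, the NK gate 306, 235 and 233, and the regulatory T gate 13, 13 and 8. A further 2152, 593 and 846 T-gated cells showed neither Cd4 nor Cd8 and were left out of these gates. Limits on B cell, myeloid and haemoglobin UMIs removed 8.33% of cells with at least 2 Cd3 UMIs in young, 28.7% in aged and 29.6% in the aged-GA library. At most 2 barcodes of gated cells were shared between any pair of libraries.

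No member gene was used to gate. Of markers that the gates did not use, Trac, a chain of the T cell receptor, was at 375 to 713 CPM in the CD4 and CD8 gates and at 10.7 to 16.7 in the NK gate. Cd40lg, a helper cell ligand, was at 38.4 to 56.9 in the CD4 gate and at 0 to 1.07 in the CD8 gate. Klra8 and Klra4, NK cell receptors, were at 490 to 1145 in the NK gate and at 0 to 12.7 in the CD4 and CD8 gates. Markers of other blood cells moved with age in the CD4, CD8 and NK gates. In CD8-gated cells the summed level of 6 red cell markers was 874, 5109 and 3710 CPM in young, aged and aged-GA mice, that of 6 neutrophil markers 4.28, 146 and 102, and that of 6 monocyte and macrophage markers 98.3, 242 and 145. Lyz2 among these was at 0.980, 75.6 and 22.0 in the CD8 gate, at 4.87, 107 and 39.3 in the NK gate and at 1.19, 82.9 and 29.4 in the CD4 gate, although the gates limit it. The part of this background in the values below was not tested.

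Among the CD4, CD8 and NK gates, most factors had a gate in which they were highest. Tbx21, Eomes and Zeb2 were highest in NK-gated cells of each library, with intervals clear of those in the CD4 and CD8 gates. Zeb2 was higher still in monocyte-gated cells of each library, as given under the other observations. Rora, Maf and Ikzf2 were highest in CD4-gated cells of the aged and aged-GA libraries, leaving aside the small regulatory T gate. Gata3 was also highest in the CD4 gate, with an interval that met that of NK-gated cells in the young library. Foxp3 was at 0 in all 306, 235 and 233 NK-gated cells, which allows up to 2.92, 3.58 and 3.58 CPM, and at 6.57 to 18.2 CPM in CD4-gated cells. Bcl6 was low in all 3 gates, at 3.61 to 19.1 CPM.

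**Figure D1:**
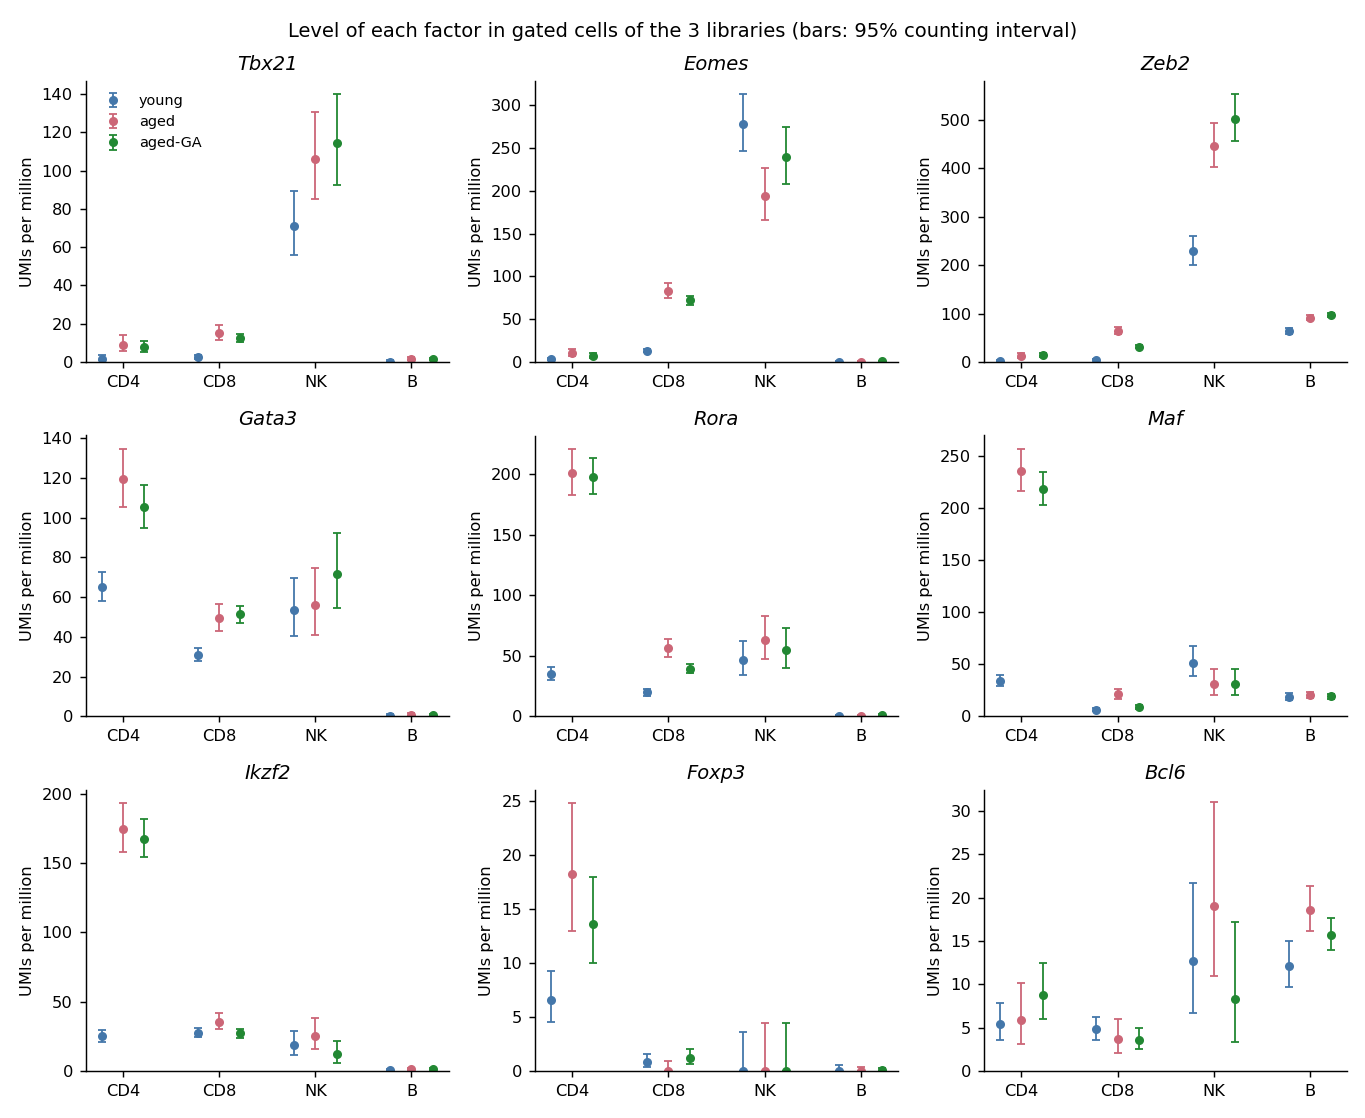
Level of each factor (y axis, UMIs scaled to 1000000 UMIs of the same cells) in CD4, CD8, NK and B-gated cells of the young, aged and aged-GA libraries (1 point per library, bars are 95% counting intervals). Among the gates drawn, Tbx21, Eomes and Zeb2 stand highest in NK cells, where Zeb2 reached 502 in aged-GA mice, and Rora, Maf and Ikzf2 stand highest in CD4 cells of aged and aged-GA mice.

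In CD8-gated cells the type 1 factors were far higher in aged than in young mice. Zeb2 was found at 4.36 CPM (interval 3.23 to 5.77, 49 UMIs in 31 of 1764 cells) in young, 64.3 (56.8 to 72.6, 263 UMIs in 123 of 712 cells) in aged and 31.9 (28.6 to 35.4, 344 UMIs in 170 of 1469 cells) in the aged-GA library. The 3 intervals did not overlap, with aged highest and young lowest. Eomes was at 13.4 (11.3 to 15.7), 83.2 (74.6 to 92.5) and 72.0 (67.1 to 77.3), so that both aged libraries lay far above the young one and their own intervals met. Tbx21 was the scarcest of these at 2.67, 14.9 and 12.4 CPM, from 30, 61 and 134 UMIs. The aged over young log2 ratio was 3.88 (3.44 to 4.35) for Zeb2, 2.64 (2.36 to 2.93) for Eomes and 2.48 (1.83 to 3.16) for Tbx21, which is 14.7-fold, 6.23-fold and 5.58-fold.

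The other factors in CD8-gated cells moved less with age. Rora was at 19.8, 56.5 and 39.4 CPM in young, aged and aged-GA mice (aged over young log2 ratio 1.52, interval 1.24 to 1.79), and Maf at 6.32, 21.3 and 8.98 (1.75, 1.28 to 2.22). Gata3 was at 31.0, 49.4 and 51.3 (0.67, 0.42 to 0.93), just past 1.5-fold. Ikzf2 was at 27.6, 35.5 and 27.1 and Bcl6 at 4.81, 3.67 and 3.61, and neither passed 1.5-fold. Foxp3 had 9 UMIs in young, none in aged (which allows up to 0.734 CPM) and 13 in aged-GA mice.

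With no test to make, a gene was called where its level differed by at least 1.5-fold and it had at least 50 UMIs over both libraries. Of 8877 genes compared in CD8-gated cells, 28.4% were called higher and 3.81% lower in aged than in young mice. Of the 8 members compared, 6 were called higher (Tbx21, Eomes, Gata3, Rora, Maf and Zeb2) and none lower, and their median log2 ratio was 1.63 beside 0.33 over all genes compared. What set the median of 0.33 over all genes was not tested. Relative to it the ratios of Zeb2 and Eomes were still 3.55 and 2.31, while Gata3, at 0.34, no longer reached 1.5-fold.

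Values of other markers stood beside these. The 8 NK markers summed to 192, 678 and 326 CPM in the CD8 gate of young, aged and aged-GA mice, the order seen for Zeb2, against 18915 to 22226 in the NK gate. Gzma made up most of this sum, at 132, 501 and 174, followed by Klre1 (13.9, 88.6 and 74.8) and Prf1 (28.1, 66.5 and 60.7), and the other 5 each lay between 0.979 and 12.7. The part of NK cells in the CD8 values was not tested. Stricter gates allowed no B cell or myeloid UMI, asked for more Cd3 and Cd8 UMIs, and left 1402, 142 and 467 CD8 cells. With them the aged over young ratio was 3.71 for Zeb2 and 2.72 for Eomes, and the aged-GA over aged ratio of Zeb2 was -1.01. Gata3 fell to 0.42, below 1.5-fold, and Tbx21 was left with 28 and 9 UMIs in young and aged mice and could not be compared.

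Between aged-GA and aged mice 2 members were called in CD8-gated cells, both lower: Zeb2 by 1.01 on the log2 scale (ratio -1.01, interval -1.25 to -0.78) and Maf by 1.24 (-1.24, -1.68 to -0.81). Over 9094 genes compared, 4.11% were called lower and 2.63% higher. Eomes (-0.21, -0.39 to -0.02), Rora (-0.52, -0.75 to -0.28) and Ikzf2 (-0.39, -0.68 to -0.09) were lower within 1.5-fold with intervals below 0, and those of Tbx21 (-0.27, -0.71 to 0.20), Gata3 (0.05) and Bcl6 (-0.02) held 0. Which members passed 1.5-fold turned on the gate. With cells thinned to 2000 UMIs before gating, Eomes (-0.63), Rora and Ikzf2 (-0.69) were also called lower. Under the stricter gates Rora was also called lower, and Eomes was at -0.46. The share of all genes called was not counted under these settings. The aged library stands in both comparisons, so a high or low value in it moves them in opposite directions. In UMIs of the same cells, Zeb2 stood at 0.327 UMIs per UMI of Eomes in young, 0.774 in aged and 0.442 in the aged-GA library, and Tbx21 at 0.2, 0.179 and 0.172.

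**Figure D2:**
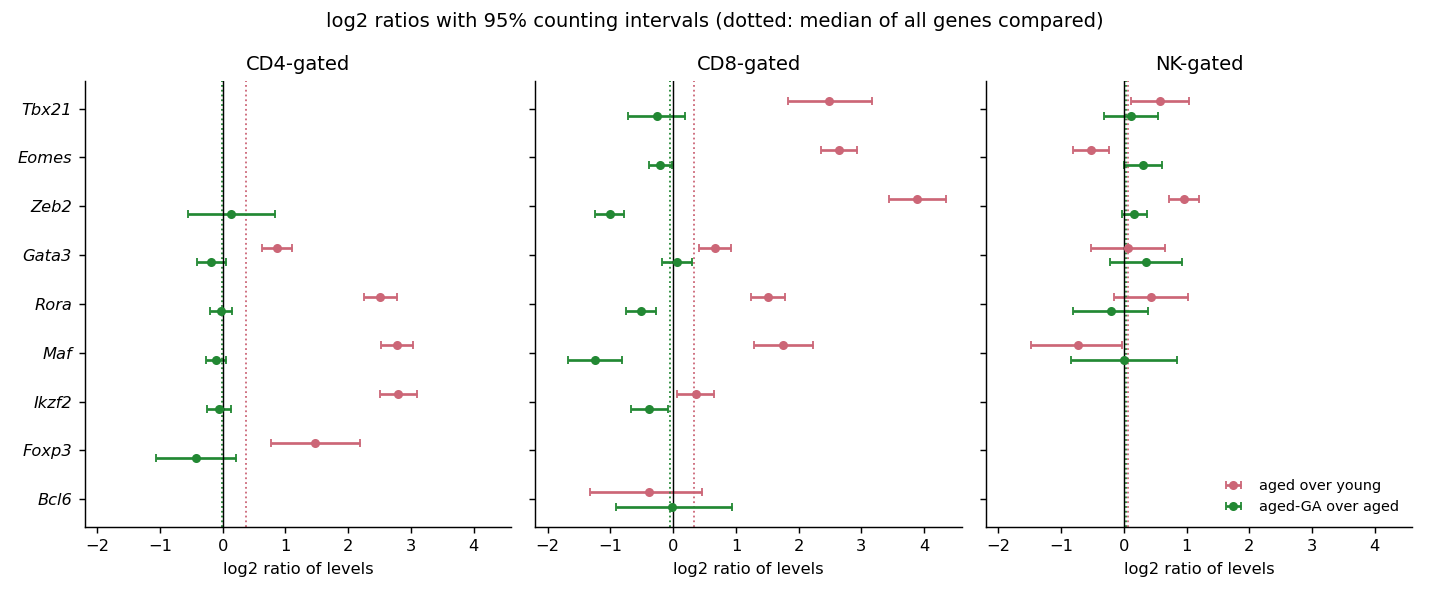
log2 ratios (x axis) of the factors with at least 50 UMIs in CD4, CD8 and NK-gated cells, aged over young and aged-GA over aged, with 95% counting intervals (bars) and the median of all genes compared (dotted lines). Aged over young, Zeb2 in CD8-gated cells lies at 3.88, and aged-GA over aged, Zeb2 and Maf in CD8-gated cells lie at -1.01 and -1.24.

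The CD8 gate held different cells in the 3 libraries. Memory-marked cells (no Ccr7 and at least 2 UMIs over S100a4, Ccl5, Cxcr3 and Itgb1) made up 4.14% of the gate in young, 34.4% in aged and 21.3% in the aged-GA library. Zeb2 was far higher in memory-marked than in the other CD8-gated cells. It was at 1.77 (1.06 to 2.76), 10.1 (6.78 to 14.4) and 13.5 (11.2 to 16.1) CPM in the other cells, from 19, 30 and 121 UMIs, and at 63.6 (42.9 to 90.7), 211 (185 to 240) and 121 (106 to 138) in memory-marked cells, from 30, 233 and 223 UMIs. Other markers also differed between these classes. The 6 monocyte and macrophage markers summed to 127, 318 and 165 CPM in memory-marked and to 97.1, 214 and 141 in the other cells, and the 8 NK markers to 1854, 2155 and 1027 against 119, 132 and 183, and their part in Zeb2 was not tested. Within memory-marked cells the aged over young log2 ratio of Zeb2 was 1.73 (1.18 to 2.33) and the aged-GA over aged ratio -0.80 (-1.07 to -0.53). In the other cells these ratios were 2.51 (1.63 to 3.42) and 0.43 (-0.16 to 1.05). The ratio of 2.51 rests on 30 aged and 19 young UMIs, which falls short of the UMI minimum for a comparison, so it was not called.

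Eomes did not keep to the memory-marked cells. It was at 44.5, 138 and 118 CPM in them and at 11.99, 63.0 and 62.7 in the other cells of young, aged and aged-GA mice. Aged exceeded young in both, by 1.63 (0.97 to 2.36) and 2.39 (2.06 to 2.73) on the log2 scale. Eomes is known from CD8 cells that take on memory traits without infection, which grow common in old mice. Aged-GA over aged, both intervals held 0, at -0.23 (-0.53 to 0.08) in memory-marked and -0.01 (-0.25 to 0.24) in the other cells.

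Maf in CD8-gated cells of the aged and aged-GA libraries was higher in memory-marked than in the other cells, which held 15 and 44 of its UMIs. It was at 6.32, 5.03 and 4.91 CPM in the other cells of the 3 libraries, and at 6.36 (3 UMIs), 65.2 (72 UMIs in 30 cells) and 28.8 (53 UMIs in 32 cells) in memory-marked cells. Gzmk encodes a granzyme of age-associated CD8 cells, and in cells with at least 2 of its UMIs Maf was at 125 CPM in aged (33 UMIs in 13 of 56 cells) and 78.1 in aged-GA mice (34 UMIs in 18 of 73 cells), with none in the 7 young cells. In memory-marked cells without Gzmk it was at 7.30, 25.4 and 13.6. For Zeb2 the aged-GA over aged ratio was -1.04 (-1.41 to -0.66) in memory-marked cells without Gzmk and -0.28 (-0.80 to 0.25) in the Gzmk cells. For Maf it was -0.89 (-1.94 to 0.15) and -0.68 (-1.41 to 0.06) in the same classes. The Maf ratio of -0.89 rests on 17 aged-GA and 18 aged UMIs, which falls short of the UMI minimum for a comparison, so it was not called.

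Ikzf2 went the other way in memory-marked CD8 cells, at 102 (75.0 to 135) in young, 48.9 (36.7 to 63.8) in aged and 46.8 (37.4 to 57.8) in the aged-GA library. The 48 young UMIs lay in 9 of 73 cells, so few cells carry this value. When the CD8 levels of each library were weighted to the young mix of memory-marked and other cells, the aged over young log2 ratios of Rora and Maf came to 0.37 and 0.26, below 1.5-fold, and those of Zeb2, Eomes and Tbx21 to 2.08, 2.31 and 1.68. With the same weights the aged-GA over aged ratio was -0.04 for Zeb2 and -0.35 for Maf, both below 1.5-fold. Within memory-marked cells alone it was -0.80 for Zeb2 and -1.18 (-1.72 to -0.65) for Maf, both past 1.5-fold.

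**Figure D3:**
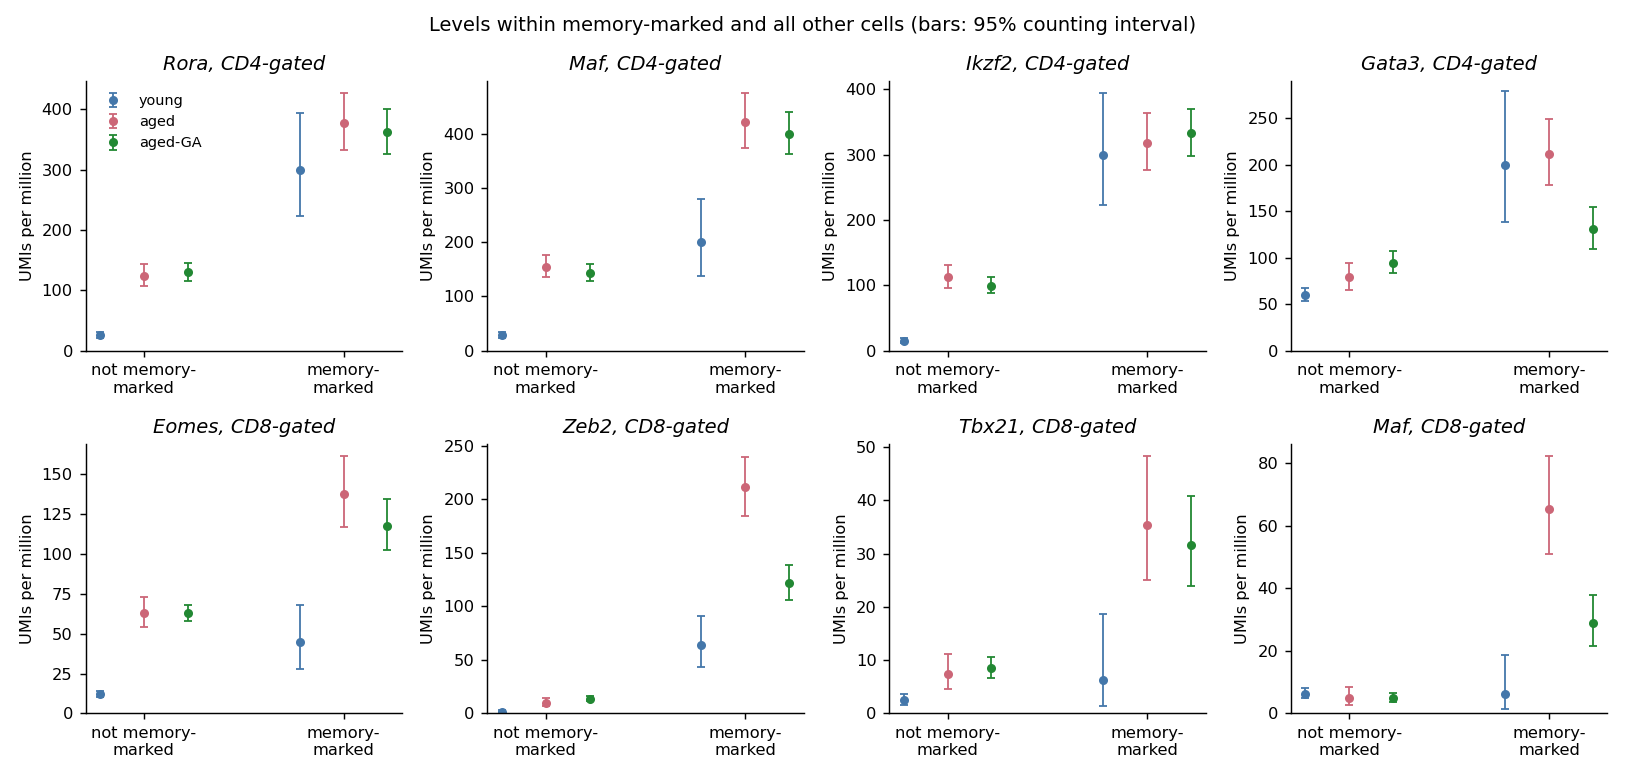
Levels (y axis, CPM) of 4 factors in CD4-gated and of 4 in CD8-gated cells, split into memory-marked and all other cells of each library (points, with 95% counting intervals as bars). Zeb2 in CD8-gated cells is at most 13.5 outside memory-marked cells, where aged mice stand at 211 and aged-GA mice at 121, while Eomes is also found in the other cells, at 63.0 and 62.7.

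To compare shares of cells at 1 depth, each cell was thinned to 1000 UMIs (median depth before thinning 5996, 5685 and 7257 in the CD8 gate). Zeb2 then gave a UMI in 0.680% of CD8-gated cells (0.352 to 1.19%) in young, 8.15% (6.24 to 10.4%) in aged and 4.02% (3.07 to 5.15%) in the aged-GA library. Eomes gave one in 0.964%, 7.87% and 7.36%, against 0.0571%, 0.0650% and 0.239% of B-gated cells, which should lack it. The order of the libraries was that of the levels for both. Without thinning, 1.76%, 17.3% and 11.6% of CD8-gated cells held a UMI of Zeb2 and 5.95%, 27.1% and 30.6% one of Eomes. B-gated cells carry Zeb2 themselves (5.83%, 8.35% and 8.07% after thinning) and give no background for it.

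Eomes and Zeb2 met in a minority of CD8 cells. Of aged CD8-gated cells with a Zeb2 UMI, 37.4% (46 of 123) also held one of Eomes, against 25.0% of those without Zeb2, whose median depth was 5975 UMIs against 3801. In aged-GA mice these shares were 44.7% and 28.8%, and in young mice 29.0% and 5.54%. In the reverse direction, 23.8% of aged CD8-gated cells with Eomes held Zeb2, as did 14.8% of those without.

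In NK-gated cells Zeb2 was at 229 (201 to 260) CPM in young, 446 (402 to 494) in aged and 502 (455 to 552) in the aged-GA library, with both aged libraries above the young one. Tbx21 followed at 71.1 (55.8 to 89.4), 106 (85.3 to 131) and 114 (92.7 to 140), the young and aged intervals overlapping. Eomes went the other way, at 279 (247 to 313), 194 (166 to 227) and 240 (208 to 275). Zeb2 and T-bet are known to mark late NK cells, Eomes being needed from the start of conventional NK development. The aged over young log2 ratio was 0.96 (0.72 to 1.20) for Zeb2, 0.58 (0.12 to 1.04) for Tbx21 and -0.52 (-0.81 to -0.24) for Eomes, and Zeb2 stood at 0.822 UMIs per UMI of Eomes (0.688 to 0.980) in young, 2.29 (1.90 to 2.78) in aged and 2.09 (1.77 to 2.49) in the aged-GA library.

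Of 4651 genes compared in NK-gated cells, 13.4% were called higher and 6.90% lower in aged than in young mice, and of 6 members Zeb2 was called higher and Maf lower. Maf was at 51.6, 31.0 and 31.0 CPM from 53, 26 and 26 UMIs, and its interval of -1.47 to -0.03 nearly reached 0. Gata3 (53.6, 56.1 and 71.5) and Rora (46.8, 63.2 and 54.8) had intervals that held 0 in this gate. Aged-GA over aged, none of the 6 was called, against 5.15% of 4507 genes called higher and 4.08% lower, with Zeb2 at 0.17 (-0.03 to 0.37) and Eomes at 0.30 (-0.0039 to 0.61).

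These NK values turned on the gate. With at least 3 NK markers and no B cell or myeloid UMI at all, 240, 52 and 84 cells were left, Zeb2 was at 225, 266 and 539 CPM and Eomes at 277, 286 and 251. The aged over young ratios of Zeb2, Eomes and Tbx21 were then 0.24, 0.05 and 0.00086, Gata3 was called lower in aged than in young mice (-1.10), and the aged-GA over aged ratio of Zeb2 was 1.02. The Gata3 call rests on 45 young and only 5 aged UMIs, and the share of all genes called under this gate was not counted. With each cell thinned to 2000 UMIs before gating, which left 280, 214 and 220 cells, the levels were 239, 472 and 491 for Zeb2 and 264, 168 and 259 for Eomes, which put Eomes past 1.5-fold higher in aged-GA than in aged mice. After thinning to 1000 UMIs, Zeb2 gave a UMI in 22.1% (17.6 to 27.2%), 36.2% (30.0 to 42.8%) and 38.2% (31.9 to 44.8%) of NK-gated cells.

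In CD4-gated cells Rora, Maf and Ikzf2 stood out. Rora was at 35.2 (30.2 to 40.8) CPM in young, 201 (183 to 221) in aged and 198 (184 to 213) in the aged-GA library. Maf was at 34.5 (29.5 to 40.0), 236 (216 to 258) and 219 (204 to 235). Ikzf2 was at 25.1 (20.9 to 29.9), 175 (158 to 193) and 168 (155 to 182). For each of them the young interval lay far below both others, which overlapped, and aged exceeded young 5.71-fold, 6.86-fold and 6.97-fold. Gata3, which CD4 cells also need to develop, was at 65.1, 119 and 105, or 1.83-fold higher in aged than in young mice.

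Of 7561 genes compared in CD4-gated cells, 32.6% were called higher and 4.09% lower in aged than in young mice. All 5 members compared (Gata3, Rora, Foxp3, Maf and Ikzf2) were called higher, with a median log2 ratio of 2.51 beside 0.37 over all genes. Relative to that median over all genes Gata3, at 0.51, fell short of 1.5-fold. Under the stricter gates, which left 923, 145 and 274 CD4 cells, the ratios of Rora, Maf and Ikzf2 were 2.96, 2.65 and 3.43, and Foxp3 had 21 and 7 UMIs, too few to compare. Tbx21 (9, 20 and 27 UMIs), Eomes (16, 23 and 25), Bcl6 (27, 13 and 31) and Zeb2 (12, 29 and 51) stayed under 50 UMIs over young and aged mice. Aged-GA over aged, none of 6 members was called, against 3.09% of 7515 genes called higher and 2.98% lower. The ratios of Rora, Maf and Ikzf2 were -0.02 (-0.20 to 0.15), -0.11 (-0.27 to 0.05) and -0.06 (-0.25 to 0.13).

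As with CD8, the CD4 gate held more memory-marked cells with age, 3.08%, 32.8% and 32.8% in young, aged and aged-GA mice. Within the memory-marked cells, of which young mice had 31, Rora was at 299 (223 to 393), 377 (332 to 427) and 363 (327 to 401), and Ikzf2 at 299, 317 and 333, so that the libraries overlapped. Maf alone of these still differed, at 199 (138 to 279) in young and 422 (374 to 475) in aged mice (log2 ratio 1.08, 0.57 to 1.64). In the other CD4-gated cells aged and young stayed apart for all 3, with log2 ratios of 2.26 (1.93 to 2.60) for Rora, 2.44 (2.13 to 2.75) for Maf and 2.86 (2.46 to 3.27) for Ikzf2. Rora stood there at 26.0, 124 and 130 CPM, Maf at 28.7, 155 and 144, and Ikzf2 at 15.5, 113 and 99.6. Weighted to the young mix of memory-marked and other cells, the aged over young ratios over the gate were 1.91 for Rora, 2.25 for Maf and 2.25 for Ikzf2, and that of Gata3 was 0.36, below 1.5-fold.

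Within memory-marked CD4 cells Gata3 was the only factor with at least 50 UMIs to differ by 1.5-fold between aged-GA and aged mice, at 131 (109 to 154) against 211 (178 to 249), a log2 ratio of -0.69 (-1.05 to -0.34). The median over the 4522 genes compared in these cells was -0.02, and the share of them called was not counted. In the other CD4-gated cells it was at 94.8 (83.1 to 108) against 79.2 (65.7 to 94.6), a ratio of 0.26 (-0.06 to 0.59). The same CD4 cells often held Maf and Rora together: 58.5% of aged cells with a Maf UMI had one of Rora, against 25.5% of those without, at median depths of 3977 and 4178.5 UMIs. In young mice these shares were 29.3% and 4.87%, and in aged-GA mice 58.6% and 20.9%.

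Foxp3 was scarce everywhere, and the regulatory T gate (CD4 cells with Il2ra and with Ctla4 or Tnfrsf18) was too small to describe well. Its 13 young, 13 aged and 8 aged-GA cells held 14, 20 and 4 UMIs of Foxp3, at 163 (88.9 to 273), 335 (205 to 518) and 87.6 (23.9 to 224) CPM, against 6.57, 18.2 and 13.6 in the CD4 cells outside the gate. Ikzf2 gave 21, 59 and 30 UMIs, at 244 (151 to 373), 989 (753 to 1275) and 657 (443 to 938). It was the only member with enough UMIs to compare, and was called higher in aged than in young mice (2.02, 1.28 to 2.81), where 19% of 368 genes were called higher and 19.8% lower, and lower in aged-GA than in aged mice (-0.59, -1.27 to 0.07), where 19.5% of 261 genes were called higher and 18% lower.

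A wider gate gave the same order of the libraries on more cells. With at least 2 of Il2ra, Ctla4, Tnfrsf18 and Tnfrsf4 it held 131, 139 and 196 cells, in which Foxp3 was at 53.5 (38.1 to 73.2), 88.8 (67.6 to 115) and 41.2 (29.6 to 55.9) CPM. Foxp3 UMIs were found in 15, 27 and 19 of these cells, so most of them showed none. Ikzf2 was at 170 (142 to 203), 486 (434 to 542) and 385 (347 to 426), with all 3 intervals apart, and Maf at 63.1, 348 and 387. The aged-GA over aged log2 ratio was -1.11 (-1.72 to -0.51) for Foxp3 and -0.34 (-0.55 to -0.12) for Ikzf2, which is no longer 1.5-fold. The young and aged-GA intervals of Foxp3 overlapped under both gates. Without B cell, myeloid and haemoglobin limits, a setting chosen after seeing the data, the first gate held 17, 23 and 16 cells. Foxp3 was then at 109, 187 and 134 CPM, with aged-GA above young mice, and Ikzf2 at 190, 542 and 541.

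**Figure D4:**
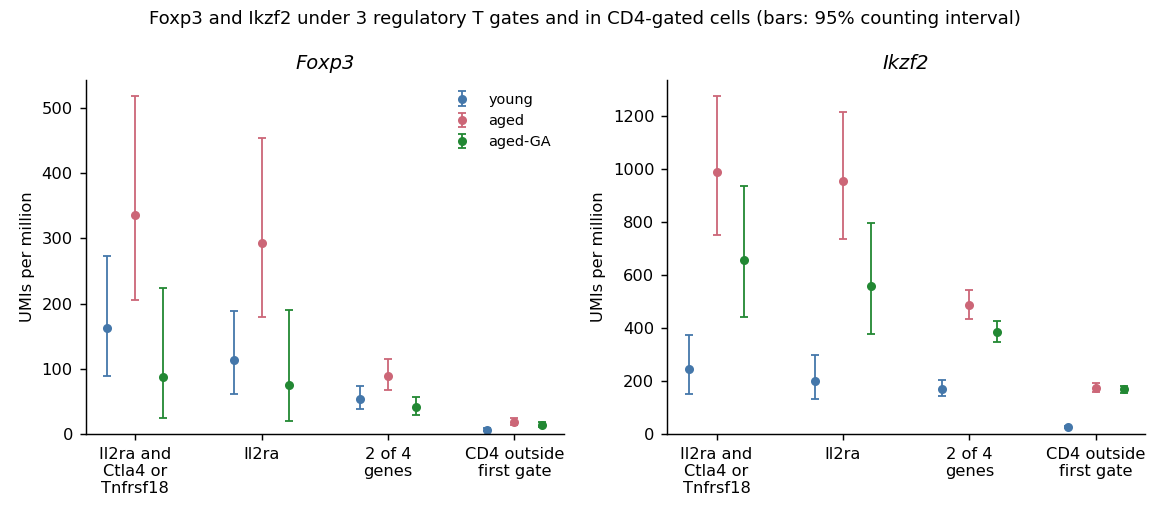
Foxp3 and Ikzf2 (y axis, CPM) in CD4 cells taken by 3 regulatory T gates of increasing width and in the CD4 cells outside the first gate, for each library (points, with 95% counting intervals as bars). Under the gate of 2 of 4 genes Ikzf2 stands at 170 in young, 486 in aged and 385 in the aged-GA library.

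Most CD4-gated cells with Ikzf2 showed no Foxp3 UMI. Since most cells of the wider regulatory T gate showed none either, a cell without one cannot be taken to lack Foxp3. In CD4-gated cells outside the regulatory T gate there were 3.82 UMIs of Ikzf2 per UMI of Foxp3 in young (2.59 to 5.79), 9.60 (6.92 to 13.7) in aged and 12.4 (9.20 to 16.9) in the aged-GA library. Of cells with an Ikzf2 UMI, 8 of 35 in young, 16 of 124 in aged and 18 of 192 in the aged-GA library also held Foxp3. Seen from Foxp3 the link was close, with Ikzf2 in 8 of 14, 16 of 20 and 18 of 24 Foxp3 cells. The aged CD4-gated cells with Ikzf2 carried Maf at 403 (353 to 458) and Rora at 284 (243 to 330) CPM, against 183 (132 to 249) and 282 (217 to 361) in the young ones. The 6 regulatory T markers summed to 208, 448 and 414 CPM over the CD4 gate, the order seen for Ikzf2, and their part in its level was not tested. Helios is known in activated and memory helper cells as well as in regulatory T cells.

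Lists of genes from the programs these factors belong to gave the following counts. Of 17 type 1 and cytotoxic genes, all 17 were compared in CD8-gated cells, and 15 were called higher and 1 lower (Tnf, at 5.38 against 19.2 CPM) in aged than in young mice, with a median log2 ratio of 2.37 beside 0.33 over all genes, of which 28.4% were called higher. In B-gated cells, which should lack most of these genes, 6 of 7 compared were called higher and 1 lower with age. Their median was 1.94 beside 0.28 over all genes. With GA 4 of 8 were called lower and 2 higher, at a median of -0.39 beside -0.05 over all genes. The share of all B-gated genes called was not counted. The 8 NK markers summed to 8.20, 31.2 and 15.4 CPM in B-gated cells, and the part of such background in the CD8 counts was not tested. Ccl4, a chemokine of effector cells, was at 220 against 7.30, and Gzmk at 52.1 against 2.58. Aged-GA over aged, 7 of the 17 were called lower, among them Cx3cr1 (-1.73), Gzma (-1.52) and Klrg1 (-1.36), which mark terminal effector cells, and 1 higher, Gzmm (0.98). Of all genes compared in the CD8 gate, 4.11% were called lower and 2.63% higher. In memory-marked CD8 cells, 6 of 15 compared were lower and Gzmm was higher, with Cx3cr1 at 50.1 against 119 and S1pr5 at 34.3 against 68.8. The median of the list there was -0.37 beside -0.07 over all genes, whose share called was not counted in these cells. Ccl5 and Cxcr3 of this list also served to mark memory cells. In CD4-gated cells 9 of 12 compared were called higher and 1 lower with age, at a median of 1.68 beside 0.37 over all genes. With GA 4 of 12 were called lower and 1 higher there. Of all CD4-gated genes, 32.6% were called higher and 4.09% lower with age, and 3.09% higher and 2.98% lower with GA. In NK-gated cells 2 of 13 were called higher and 1 lower with age, and none of the 13 was called with GA. These shares lie near the 13.4% higher and 6.90% lower with age over all NK-gated genes.

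The remaining lists were thinner. Of 18 regulatory genes, 7 were compared in CD4-gated cells and all 7 were called higher in aged than in young mice, from Icos (0.81) and Tnfrsf18 (0.83) to Nrp1 (2.92), and none was called with GA. Their median with age was 1.14, beside 0.37 over all CD4-gated genes, of which 32.6% were called higher. Within memory-marked CD4 cells 2 of 7 compared were higher, at a median of 0.02 beside 0.13 over all genes. In the other CD4-gated cells 5 of 7 were higher, at a median of 1.06 beside 0.30. The share of all genes called was not counted in these classes. Of 12 follicular helper genes, of which Icos and Izumo1r are also in the regulatory list, 6 of 8 were called higher with age in the CD4 gate, led by Tox2 (28.7 against 2.39 CPM), while Bcl6 itself was at 5.38 in young and 5.92 in aged mice. Of 9 type 2 genes only Il4ra and Crlf2 could be compared in CD4-gated cells. Their median log2 ratio with age was 0.07 beside 0.37 over all genes. Crlf2, a receptor for the cytokine TSLP, was called higher in aged than in young mice (log2 ratio 0.62), and Il4ra was lower within 1.5-fold. Of 7 type 17 genes none could be compared with age, and Il17a, at 80 UMIs in aged-GA and 1 in aged CD4-gated cells, came from 5 cells and 1 cell.

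Of 38 other transcription factors of T and NK cells, 10 of 29 compared were called higher and 3 lower in CD4-gated cells of aged than of young mice. The share of higher ones was near the 32.6% of all genes, of which 4.09% were called lower. The 3 lower ones were Lef1 (-1.07), Id3 (-1.06) and Satb1 (-0.91), factors of naive and developing T cells. In the CD8 gate 5 of 27 were higher, a smaller share than the 28.4% of all genes. Id3 (-1.41) and Lef1 (-0.93) were lower there, as were 3.81% of all genes. Prdm1, a repressor of terminal effector cells, stood at 14.2 against 5.88 CPM. Zeb1, the relative of Zeb2, was at 70.2 in aged and 88.6 in young CD8-gated cells, within 1.5-fold. In NK-gated cells 3 of 21 were lower with age (Klf2, Id2 and Stat4) and 2 higher (Stat3 and Nr4a1). Of all genes compared in that gate, 6.9% were lower and 13.4% higher. Klf2, which keeps lymphocytes in circulation, was at 2780 CPM in young, 1507 in aged and 2590 in the aged-GA library.

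The patterns of the factors were set beside those of 9470 genes over 12 sums, 4 gates in each of 3 libraries, as Pearson r of log2(CPM + 1), which describes these sums only, since they share libraries and depth. The genes most like Zeb2 were Slamf7 (r = 0.99), Fgl2 (0.98) and Klrc2 (0.98), and those most like Eomes were As3mt (0.99), Ncald (0.99) and the NK receptor gene Klrk1 (0.99). Foxp3 was closest to Tnfrsf4 (0.97), one of the genes of the wider regulatory T gate, and Ikzf2 had Nrp1 (0.95) among its 3 closest. Rora and Maf were among each other's 3 closest genes (0.94, and 0.92 over the 9 sums without the regulatory T gate). Tbx21 and Zeb2 had an r of 0.65 over 12 sums and 0.99 without the regulatory T gate, where they had 0 to 3 UMIs, and Eomes and Foxp3 an r of -0.93 and -0.84. Eomes had 0 UMIs in the regulatory T gate of each library, and Foxp3 had 0 in each NK gate and in the aged CD8 gate.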

How the data were processed

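Blood mononuclear cells were measured with the 10x 3′ kit in 1 library for each of the young, aged and aged-GA groups. The authors ran Cell Ranger and deposited unnormalised UMI counts for each barcode. The matrix headers name version 5.0.0 and the submitters' processing notes build mm10. From these counts, cells were kept that had 200 genes or more, no more than 90% of the largest gene number in their library and up to 7.5% mitochondrial UMIs, after the study's methods. Doublets were limited by gene number only, and Scrublet (scanpy 1.11.5) served as an alternative.

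The gates are limits on UMIs of marker genes, with no cluster and no member gene. T cells had at least 2 UMIs of Cd3d, Cd3e and Cd3g. CD4 cells also had Cd4 and no Cd8a or Cd8b1, and CD8 cells at least 2 UMIs of these and no Cd4. NK cells had at least 2 of Ncr1, Klrb1c, Klre1 and Klri2 and at most 1 Cd3 UMI. These gates allowed at most 1 UMI of Cd79a, Cd79b and Ms4a1, 3 of Lyz2, Csf1r, S100a8 and S100a9, and 5% haemoglobin. B cells had at least 3 UMIs of Cd79a and Cd79b, 1 or more of Ms4a1 and no Cd3 or Ncr1. Monocytes had at least 2 UMIs of Csf1r, 5 of Lyz2 and no Cd3.

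Levels (CPM) are UMIs summed over cells and scaled to 1000000, with exact Poisson intervals; shares have exact binomial intervals, and ratios the exact interval of a ratio of 2 Poisson counts, all at 95%. A count of 0 was bounded at 3 counts. A gene entered a comparison with 50 UMIs or more in the libraries together. The ratios and intervals were tested on simulated Poisson counts, which is the model they assume. That test does not cover several UMIs of a gene coming from 1 cell. The intervals cover counting error only, and in a gate fewer cells of a kind and less RNA per cell cannot be told apart. The members, gates and lists were chosen with earlier results of these data known. Genes named outside the 9 are markers, genes of the listed sets and, for each factor, the 3 most alike. The clusters of the study were not used here. A split of the T cells and 1 gene of a list that were planned are not reported here. Python 3.11.15 with numpy 2.4.6, scipy 1.17.1 and pandas 2.3.3 was used.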

Additional observations from a re-analysis of the deposited data

Results flagged for a closer look

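Eomes moved in opposite directions with age in different gates: aged over young, its log2 ratio was 2.64 in CD8-gated and -0.52 in NK-gated cells, each with an interval on its own side of 0. Maf did so too, at 2.78 in CD4-gated and 1.75 in CD8-gated cells against -0.74 in NK-gated cells. With 1 library per group these differences between gates were not tested. Under the stricter NK gate, which left 52 aged cells, the ratio of Eomes was 0.05, while that of Maf stayed between -1.08 and -0.49 under the alternatives tried.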

How the results depend on the processing

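No paired analysis was possible because each group is 1 library, and for the same reason no replicate could be left out. With age 20 member and gate pairs were compared, 13 of them higher and 1 lower in aged than in young mice. With GA 21 pairs were compared, 0 higher and 3 lower in aged-GA than in aged mice. Of all genes in the CD4, CD8, regulatory T and NK gates, 32.6%, 28.4%, 19% and 13.4% were called higher with age. With GA 2.98%, 4.11%, 18% and 4.08% were called lower in these gates. The shares in the other direction are given with each gate above. For the alternatives below, the share over all genes was not counted. Stricter gates gave 8 higher and 2 lower of 16 with age, and 1 higher and 3 lower of 12 with GA. The 3 lower with GA were Rora, Maf and Zeb2 in CD8-gated cells. Cells thinned to 2000 UMIs before gating gave 1 higher and 5 lower of 15 with GA. The 5 lower were Eomes, Rora, Maf, Ikzf2 and Zeb2 in CD8-gated cells. Ratios centred on the median of all genes gave 3 lower with age. A minimum of 20 UMIs gave 7 lower of 30 with GA. One of 200 UMIs gave 9 higher and 0 lower of 11 with age, and 1 lower of 11 with GA. Maf in NK-gated cells then had too few UMIs to compare with age, as had Maf in CD8-gated and Ikzf2 in regulatory T-gated cells with GA. A limit of 2-fold gave 0 lower with age. Chosen after seeing the data, gates with no B cell, myeloid and haemoglobin limits gave 5 lower of 27 with GA. Weights of the young mix of memory-marked and other cells, also chosen then, apply to the CD4 and CD8 gates only. With age they left Gata3 in both gates and Rora and Maf in CD8-gated cells no longer called higher. With GA they left Zeb2 and Maf in CD8-gated cells no longer called lower, and Foxp3 in CD4-gated cells was called lower. The other settings left each count within 1.5 times. A count of the same size can hold another pair. The 1 pair lower with age was Maf in NK-gated cells at first. It was Eomes in NK-gated cells after thinning to 2000 UMIs and with no B cell, myeloid and haemoglobin limits. Of 488 single ratios recomputed, 414 stayed within the counting interval, 74 left it and none of the called ones changed sign. Of 87 levels, 76 stayed within it when each cell weighed equally. Shares rise with depth: of 60, 14 stayed within their interval at 2000 UMIs and 0 without thinning.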

Other observations

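Most UMIs of each factor but Tbx21 and Eomes lay outside the T and NK gates in every library. In young, aged and aged-GA mice the 4 gates held 33.1%, 39.2% and 29.0% of Foxp3 UMIs and 46.7%, 41.3% and 45.8% of those of Gata3. For Rora they held 41.3%, 39.4% and 42.0%, and for Ikzf2 41.6%, 36.1% and 36.8%. B-gated or monocyte-gated cells held at most 2.35% of the UMIs of these 4 factors, so most of the rest lay in cells of no gate. Of Zeb2 UMIs in kept cells, the 4 gates held 22.8% in young, 6.96% in aged and 12% in the aged-GA library, B-gated cells 33.4%, 10.4% and 25.5%, and monocyte-gated cells 8.10%, 39.9% and 16.9%. In monocyte-gated cells (37, 845 and 227 cells) Zeb2 was at 571 (467 to 690), 521 (505 to 538) and 651 (614 to 690) CPM. In B-gated cells it was at 64.0 (58.1 to 70.2), 91.7 (86.1 to 97.6) and 96.5 (92.1 to 101).

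Of the UMIs of Bcl6, the follicular helper factor, the 4 gates held 27.7% in young, 3.36% in aged and 7.13% in the aged-GA library, B-gated cells 24.5%, 15.1% and 26.2%, and monocyte-gated cells 3.54%, 31.8% and 13.98%. T cells that showed neither Cd4 nor Cd8 are in none of these gates. Bcl6 stood at 64.6, 58.2 and 85.4 CPM in monocyte-gated and at 12.1, 18.6 and 15.7 in B-gated cells. Maf was at 19.2, 20.7 and 19.2 in B-gated cells and at 43.4 in aged and 28.3 in aged-GA monocyte-gated cells. Eomes and Gata3 stayed at or under 1.11 CPM in B-gated cells of each library, and Foxp3 had 0, 0 and 1 UMIs there.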
